A study of Mus musculus with 4 samples.

Results

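The clustered protocadherins were followed on 4 one-color arrays of newborn mouse brain, 2 from offspring of dams given a vehicle and 2 from offspring of dams given titanium dioxide nanoparticles (TiO2-NP). Members were the RefSeq accessions on the array whose gene symbol belongs to the alpha, beta or gamma protocadherin cluster. The array carried 35 such accessions, 1 for each of 35 genes, among 26194 accessions in all. These were 7 of the 14 alpha genes, all 22 beta genes and 6 of the 22 gamma genes that the RefSeq table of assembly GRCm38.p6 lists. The other 23 genes, Pcdhgc3 and Pcdhgc4 among them, were not analysed here.

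Protocadherins of these clusters are cell surface adhesion proteins of the cadherin superfamily. Each neuron switches on its own small set of them, and the match or mismatch of sets between neighbouring membranes is known to serve self-recognition, the spacing of dendrites and axons, neuron survival and synapse formation. The alpha and gamma genes each splice a variable first exon, which codes for the whole outer part of the protein, to constant exons that the cluster shares, whereas every beta gene is a single exon with no constant part. Which promoters a neuron uses is set by CTCF, cohesin and DNA methylation, apart from the C-type genes at the ends of the alpha and gamma clusters, which many neurons use together. Because alpha and gamma mRNAs share constant exons, a probe in a constant exon would read many of them, and the exon in which each probe lies was not tested.

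All mice were C57BL/6J. Sham dams (5) received 25 μL of the particle-free vehicle by the trachea, and TiO2-H dams (6) received 25 μL of a suspension at 4 μg/μL, or 100 μg per mouse. This was on gestational day 10.5 by the protocols, while the labels also name day 14. Whole brains were taken on postnatal day 1, and RNA of 2 offspring from each dam was pooled into 1 sample per exposure and labelled sex. The question was which mRNAs of the offspring brain differ after prenatal exposure, in each sex. Because each group was 1 pool on 1 array, a difference within a sex has no replicate check, and precision is limited by how few arrays there were. In whole brain, fewer cells of a type and less RNA per cell cannot be told apart.

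Values are processed signals, that is, the spot's brightness after the scanner software's own corrections, without a unit. For comparisons the log2 signal was taken relative to the array's 75th percentile, which lay between 795 and 871. A probe counted as present where the scanner software marked it well above background, and the dimmest such signal was 30.4 and 31.7 on the male and female Sham arrays and 29.5 and 23.3 on the male and female TiO2-H arrays. The sex labels of the TiO2-H arrays went against sex-linked mRNAs. Xist, the RNA that silences an X chromosome in females, had signals of 17.9 on the Sham male, 276 on the Sham female, 347 on the TiO2-H male and 5.36 on the TiO2-H female array. Y-linked Eif2s3y had 3519, 419, 6.40 and 4345 in that order, so that the array labelled TiO2-H male lacked it and the Sham female array held some. Sexes are therefore given as labelled, and results are also given with the TiO2-H arrays crossed. Neuron markers (Tubb3, Map2, Snap25, Stmn2, Dcx) and markers of radial glia and astrocytes (Slc1a3, Fabp7, Vim) were well above background on all 4 arrays.

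Most members were measured in newborn brain, and the beta cluster was the best covered. On all 4 arrays, 23 of the 35 members were well above background (65.5% of all accessions were), namely 6 of 7 alpha, 16 of 22 beta and 1 of 6 gamma genes. A further 6 passed on 1 to 3 arrays, of which Pcdhb5 and Pcdhb19 are beta genes and Pcdhga1, Pcdhgb1, Pcdhga10 and Pcdhgc5 are gamma genes. The remaining 6 were nowhere well above background, and these were the C-type gene Pcdhac1, the beta genes Pcdhb1, Pcdhb2, Pcdhb8 and Pcdhb11, and the gamma gene Pcdhga5. Signals of different probes cannot be set against each other, so no order of abundance is given among members.

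At the study's threshold of 1.5-fold or 0.67-fold, all but 2 of the members that could be compared stayed inside the limits after prenatal TiO2-NP exposure. On the arrays labelled male, 1 of the 27 members that could be compared reached the upper limit and 1 the lower, beside 2.87% and 2.25% of all accessions. On the arrays labelled female, 0 of 28 members lay past either limit, beside 1.95% and 2.25% of all accessions. The share of members called was thus near that of all accessions in both sexes. No p-value goes with these calls, as there was 1 array on each side.

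The member past the lower limit was Pcdhb5 (NM_053130), a single-exon beta gene. Its processed signal was 138 in Sham male, 28.0 in Sham female, 31.7 in TiO2-H male and 29.7 in TiO2-H female. Only the Sham male array stood apart, and the other 3 lay near their background limit, with the Sham female and TiO2-H male spots not well above it. TiO2-H male over Sham male was at most 0.215-fold (log2 −2.22, with 0.38 as the scanner software's own error of that difference). Sham female over Sham male, where exposure did not differ, was at most 0.235-fold, and both ratios share the Sham male array. Between the Sham arrays Pcdhb5 was the 1 member of 26 past the lower limit and 0 were past the upper (2.13% and 2.14% of all accessions). TiO2-H female over Sham female, with the Sham spot not well above background, was at least 0.856-fold. The probe was printed as a single spot.

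The member past the upper limit was Pcdhga10 (NM_033593), a gamma gene of the A type. Its signal was 18.3 on the Sham male, 17.1 on the Sham female, 95.9 on the TiO2-H male and 24.3 on the TiO2-H female array. It was well above background on the TiO2-H male array alone. TiO2-H male over Sham male was at least 2.94-fold (log2 1.56, with a scanner error of 0.62), and TiO2-H female over TiO2-H male was at most 0.253-fold. Between the TiO2-H arrays it was the 1 member of 29 past the lower limit and 0 were past the upper (2.76% and 1.5% of all accessions). Both spots that passed the limits were therefore bright on 1 array of 4. With probes required to be well above background on both arrays, the count of members past either limit on the arrays labelled male went from 2 to 0.

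**Figure D1:**
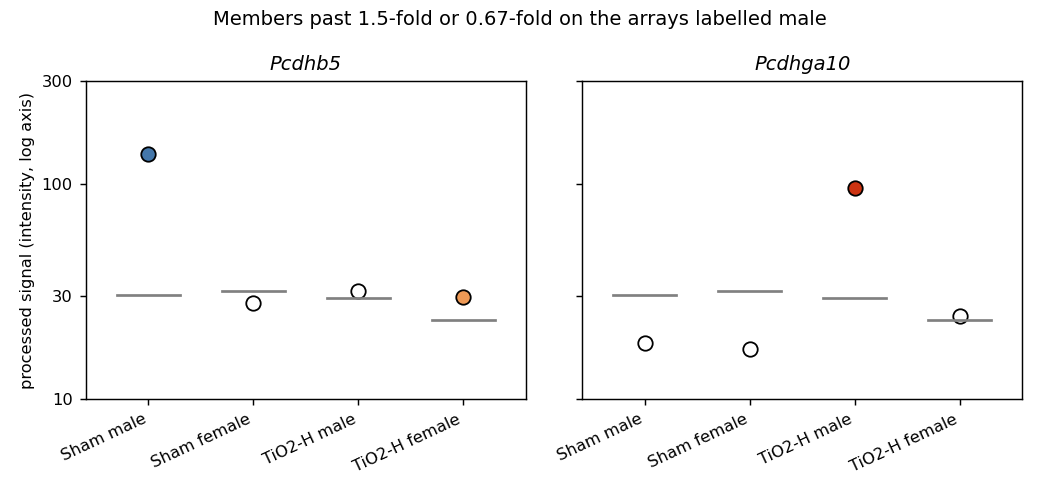
Processed signal (intensity, log axis) of Pcdhb5 and Pcdhga10 on each of the 4 arrays. Filled points were well above background, open points were not, and each grey line is the dimmest signal well above background on that array. Pcdhb5 was bright on the Sham male array at 138, and Pcdhga10 on the TiO2-H male array at 95.9.

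Markers of pituitary also stood out on the array where Pcdhga10 was bright. Of the 3 pituitary genes, growth hormone (Gh) had signals of 11.2, 6.44, 301 and 4.76 and Pomc, the precursor of ACTH, 572, 570, 956 and 590, in the order Sham male and female, then TiO2-H male and female. Prl, prolactin, was nowhere well above background. The summed signal of the 3 genes was 591, 585, 1265 and 601, and its part in the Pcdhga10 value was not tested.

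Crossing the TiO2-H arrays changed which comparison held a call. With the array labelled TiO2-H female set against Sham male, 1 member of 28 (Pcdhb5) was past the lower limit and none past the upper. With the array labelled TiO2-H male set against Sham female, 1 member of 27 (Pcdhga10) was past the upper limit and none past the lower. The share of all accessions past each limit was not counted for crossed pairs. In the pairs as labelled it was 1.95% to 2.87%.

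Below these thresholds the beta cluster had a common pattern: its members were dimmest on the Sham male array. Among the 16 beta genes well above background on all 4 arrays, 13 had their lowest scaled signal there (81.2%, beside 26.2% of all accessions). None had its lowest on the Sham female array, against 27.1% of all accessions. The 16 genes were read on the same 4 arrays and are no replicates, so these shares are a description only. The exceptions were Pcdhb9 and Pcdhb13, lowest on the TiO2-H male array, and Pcdhb6, lowest on the TiO2-H female array. The 13 genes lie from one end of the cluster to the other, from Pcdhb3 to Pcdhb22.

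**Figure D2:**
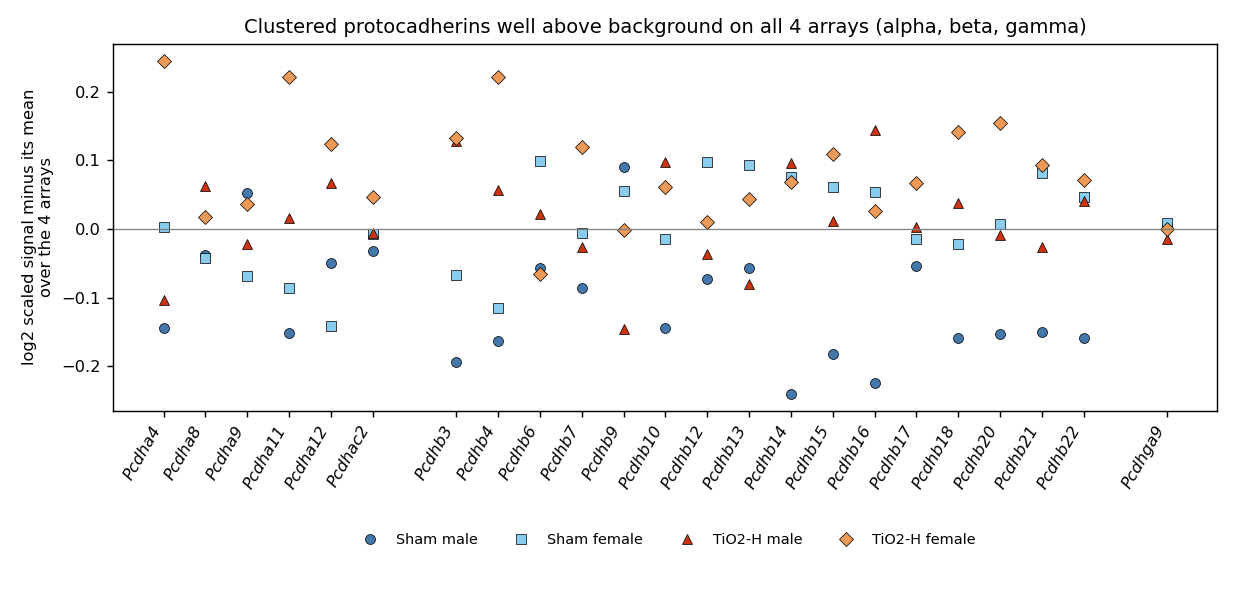
Log2 scaled signal of the 23 members well above background on all 4 arrays, each shown relative to its own mean over the arrays and placed in the order of the genes along the clusters (alpha, beta, gamma from left to right). Each symbol is 1 array. The Sham male circles are the lowest point for 13 of 16 beta genes and 3 of 6 alpha genes.

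The male comparison and the comparison of the Sham arrays both have Sham male as denominator. The median log2 fold change of the 16 beta genes was 0.17 for TiO2-H male over Sham male, with 14 of 16 above 0, where 51.3% of all accessions were. It was 0.04 for TiO2-H female over Sham female, with 10 of 16 above 0, beside 54.3% of all accessions. Sham female over Sham male had a median of 0.15, with 15 of 16 above 0 beside 46.8% of all accessions. The 2 unexposed arrays thus differed about as far as the exposed and unexposed male arrays. For a single beta gene the scanner software's own error of the Sham difference was larger than this median, from 0.20 (Pcdhb21) to 0.27 (Pcdhb13). Between the TiO2-H arrays the female over male median was 0.08, with 12 of 16 above 0 beside 52.8% of all accessions. The mean of the TiO2-H arrays lay 0.22 above Sham male at the median but 0.020 above Sham female, with 10 of 16 genes higher. Over all accessions the medians were within 0.01 of 0 for the male and the Sham comparison and 0.01 for the female.

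Among the beta genes well above background on all 4 arrays, those with the largest gap between the Sham arrays, picked after their values were seen, were Pcdhb14 and Pcdhb16, from the middle of the cluster. Pcdhb14 had signals of 259 on Sham male, 316 on Sham female, 350 on TiO2-H male and 345 on TiO2-H female. Its log2 differences were 0.32 between the Sham arrays, 0.34 between the arrays labelled male and −0.01 between those labelled female. For Pcdhb16 the signals were 371, 442, 513 and 474 in the same order, and the corresponding differences were 0.28, 0.37 and −0.03. In both genes the Sham male array stood alone, and the Sham female signal, once scaled, lay between those of the TiO2-H arrays. The scanner software's own error of such a difference was about 0.21, and it was still 0.20 for the far brighter Pcdhga9 probe. Among probes printed 10 times and well above background, spots of an array had a median SD of 0.062 to 0.067 in log2. The probes of Pcdhb14 and Pcdhb16 were printed as 1 spot each, so their own spread was not measured.

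**Figure D3:**
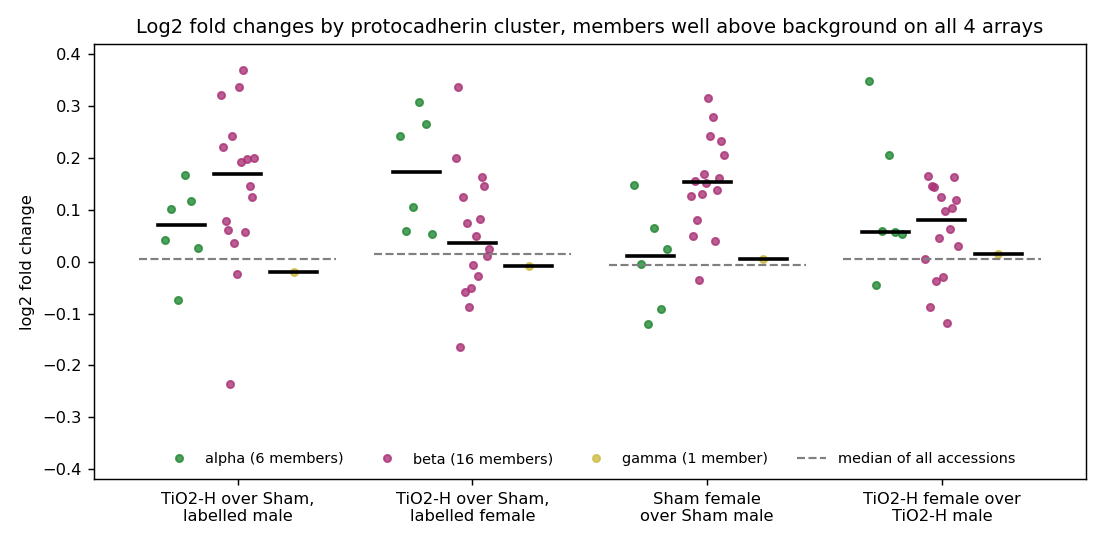
Log2 fold changes of single members (points) in 4 comparisons of 1 array with another, by cluster, for the 6 alpha, 16 beta and 1 gamma members well above background on all 4 arrays. Black bars are cluster medians and dashed lines the median of all accessions. The beta medians are 0.17 and 0.15 where Sham male is the denominator and 0.04 for TiO2-H female over Sham female.

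With crossed pairs the higher beta median was again the one set against Sham male. The array labelled TiO2-H female over Sham male had a beta median of 0.24, with 14 of 16 above 0. The array labelled TiO2-H male over Sham female had a median of −0.01, with 7 of 16 above 0. Of all 17162 accessions, 8941 and 9191 were above 0 in that order. Taking both TiO2-H arrays against both Sham arrays, the beta median was 0.12. Leaving out the Sham male array brought it to 0.020, and leaving out the Sham female array to 0.22.

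A smaller number of beta genes were higher on both TiO2-H arrays than on either Sham array, a share near that of all accessions. These were Pcdhb3, Pcdhb4, Pcdhb10, Pcdhb17 and Pcdhb18, 5 of 16 (30.9% of all accessions were), and Pcdhb9 alone was lower on both (25.7% of all accessions). Pcdhb4 (NM_053129) read 273 in Sham male, 278 in Sham female, 341 in TiO2-H male and 384 in TiO2-H female. Its log2 fold change was 0.22 in the male and 0.34 in the female comparison, and the groups did not overlap. Pcdhb10 (NM_053135) had 137 and 147 on the Sham and 173 and 169 on the TiO2-H arrays, for log2 fold changes of 0.24 and 0.07. The opposite order was found for Pcdhb9 (NM_053134), with scaled differences of −0.24 and −0.06 from signals of 118 and 113 on the Sham and 107 and 119 on the TiO2-H arrays.

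Pcdhb3 (NM_053128) was the best measured member, since its probe was printed 10 times on each array. The spots ran from 204 to 263 on the Sham male, 216 to 268 on the Sham female, 274 to 319 on the TiO2-H male and 294 to 328 on the TiO2-H female array. Raw spot signals of the TiO2-H arrays thus lay wholly above those of the Sham arrays, while after scaling the lowest TiO2-H male spot fell among the highest Sham spots. The log2 fold change of the spot means was 0.32 in the male and 0.20 in the female comparison. The SD over 10 spots was 0.11 and 0.12 on the Sham male and female arrays and 0.064 and 0.048 on the TiO2-H male and female arrays, on the log2 scale. Spots repeat the measurement of 1 pool, so they show the error of an array and not the spread between animals.

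**Figure D4:**
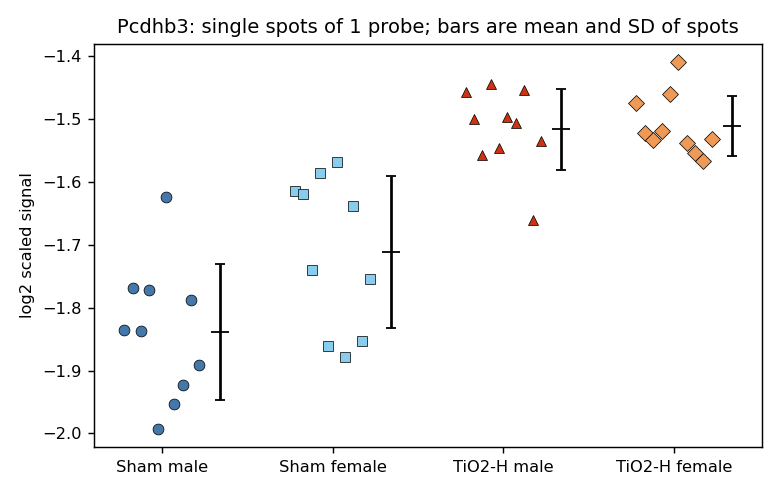
Log2 scaled signal of the single spots of the Pcdhb3 probe on each array, 10 spots an array, with the mean and SD over spots. Sham male spots ran from −1.99 to −1.62, Sham female from −1.88 to −1.57, TiO2-H male from −1.66 to −1.44 and TiO2-H female from −1.57 to −1.41.

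In the alpha cluster neither Sham array was the lowest throughout. Of its 6 genes well above background on all 4 arrays, 3 were lowest on the Sham male and 3 on the Sham female array. The median log2 difference between the Sham arrays was 0.01, with 3 of 6 genes higher in Sham female. The median log2 fold change was 0.07 in the male comparison, with 5 of 6 above 0, and 0.17 in the female comparison, with 6 of 6 above 0, beside 51.3% and 54.3% of all accessions. The mean of the TiO2-H arrays was 0.11 above Sham male and 0.079 above Sham female at the median. Over both sexes the alpha median was 0.11, and without the TiO2-H female array it was 0.059. With so few genes, which may share probe targets, no test of alpha against beta was made.

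Within the alpha cluster 4 of 6 genes, Pcdha8, Pcdha11, Pcdha12 and Pcdhac2, were higher on both TiO2-H arrays than on either Sham array, beside 30.9% of all accessions. Pcdha12 (NM_138663) read 283 in Sham male, 261 in Sham female, 329 in TiO2-H male and 343 in TiO2-H female, for log2 fold changes of 0.12 and 0.27. For Pcdha11 (NM_009960) they were 126 and 129 on the Sham and 151 and 175 on the TiO2-H arrays, for 0.17 and 0.31. In both genes the groups were apart and the gap was wider in the female comparison. Pcdha4 (NM_007766), with the widest range in the cluster, had 284 and 309 on the Sham and 313 and 400 on the TiO2-H arrays, so that after scaling only the TiO2-H female array was high.

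Pcdha8 (NM_201243) had 2 probes that differed in size of change but not in direction. The brighter had signals of 2487 and 2433 on the Sham and 2855 and 2777 on the TiO2-H male and female arrays, for log2 fold changes of 0.10 and 0.06. The dimmer gave 0.20 and 0.39. Pcdhac2 (NM_001003672), the alpha C-type gene that was measured, read 14597 and 14574 in the male and female Sham and 15909 and 16563 in the male and female TiO2-H pools, for log2 fold changes of 0.03 and 0.05. Its second probe had much lower signals, 279 and 275 on the Sham and 274 and 288 on the TiO2-H male and female arrays. That probe gave −0.13 and −0.07, so the direction for Pcdhac2 depends on the probe. Whether either probe lies in a shared constant exon was not tested. The other alpha C-type gene, Pcdhac1 (NM_001003671), had signals of 18.2, 18.2, 25.3 and 11.9, none well above background.

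In the gamma cluster 1 gene alone, Pcdhga9 (NM_033592), was well above background on every array. Its signals of 49142 and 48377 on the Sham and 51885 and 52650 on the TiO2-H male and female arrays gave log2 fold changes of −0.02 and −0.01 after scaling. A second Pcdhga9 probe had much lower signals, 1229 and 1220 on the Sham and 1575 and 1448 on the TiO2-H male and female arrays. It gave 0.26 and 0.12 in the male and female comparison, so here too the direction depends on the probe. The direction also turns without scaling or with quantile normalization. Whether the brighter probe reads this gene alone or a constant exon of the cluster was not tested. Pcdhgc5 (NM_033583), the gamma C-type gene, was well above background on the TiO2-H female array alone, with signals of 27.1, 28.9, 26.4 and 42.3, and TiO2-H female over Sham female was at least 1.22-fold. Pcdhgb1 had signals of 44.0, 32.6, 35.1 and 45.4, near the background limit. Its log2 difference of −0.43 in the male comparison was about 1 scanner error (0.42), and in the female comparison, with the Sham spot not well above background, TiO2-H over Sham was at least 1.27-fold.

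Set over all 3 clusters, 9 of 23 members were higher and 2 of 23 lower on both TiO2-H arrays than on either Sham array, beside 30.9% and 25.7% of all accessions. A positive log2 fold change in both sexes was found for 15 of 23 members, beside 37.3% of all accessions. Scaling bears on these counts. Without it, the median of all accessions moved to 0.10 in the male and 0.14 in the female comparison. Then 19 members were higher and none lower, beside 64.9% of all accessions higher and 4.4% lower. With quantile normalization the counts were 10 and 1, beside 30.4% and 25.7% of all accessions. With normexp background correction they were 11 and 1, beside 29.7% and 26.9%. Brightness moved with the fold change as well: over all accessions with a mean signal of 100 to 300 the median was 0.06 in the male and 0.04 in the female comparison, and 6 members in that range had medians of 0.18 and 0.06. In the range of 300 to 1000 all accessions had 0.01 and 0.02, and 10 members 0.16 and 0.09.

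The test of the 2 TiO2-H pools against the 2 Sham pools, with limma across 19469 accessions, called no member. At an adjusted p under 0.05 (Benjamini-Hochberg) it called 0 of 29 members and 0.0% of all accessions. At an unadjusted p under 0.05 it held 3 members, beside 16.7% of all accessions. These 3 were Pcdhb3, with a log2 difference of 0.26 (SE 0.060, 95% interval 0.080 to 0.44, limma adjusted p = 0.278), Pcdhb4, with 0.28 (SE 0.075, limma adjusted p = 0.278), and Pcdha12, with 0.19 (SE 0.055, limma adjusted p = 0.280). The intervals of most members were wide beside their differences, as for Pcdha4 (0.14, −0.31 to 0.59) and Pcdhb16 (0.17, −0.19 to 0.54). A narrow one was that of the brighter Pcdhga9 probe, −0.12 to 0.094. An exact permutation test of 2 pools against 2 cannot give a two-sided p below 0.333. These p-values measure only the spread between the pool labelled male and the pool labelled female of an exposure. Any sex difference is part of that spread. Both pools of an exposure came from the same dams, so they are not independent litters.

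Other genes of the pathway came from lists of regulators of protocadherin promoters, cytoplasmic partners, cleaving proteases, nonclustered protocadherins and classical cadherins. All 56 genes found on the array were well above background on all 4 arrays. By the fold threshold 1 of them was called in the male comparison, past the lower limit, and 0 in the female. Of all accessions 2.87% were past the upper and 2.25% past the lower limit in the male comparison. In the female comparison these were 1.95% and 2.25%. This was Ncstn, the nicastrin subunit of the γ-secretase that cleaves protocadherins, with signals of 232 in Sham male, 76.8 in Sham female, 67.5 in TiO2-H male and 72.9 in TiO2-H female. As for Pcdhb5, the Sham male array stood alone.

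The nonclustered protocadherins, single genes that are not part of the clusters, were also higher at the median on the TiO2-H arrays. For 11 of them, with the brightest accession for each gene, the median log2 fold change was 0.13 in the male and 0.09 in the female comparison, with 8 and 10 of 11 above 0 (51.3% and 54.3% of all accessions were), and 7 were higher on both TiO2-H arrays than on either Sham array (30.9% of all accessions). Over all 16 of their accessions the medians were 0.14 and 0.15. Between the Sham arrays the 11 genes had a median of 0.01, with 6 of 11 higher in Sham female, and the mean of their TiO2-H arrays lay 0.16 above Sham female. Pcdh17 had log2 fold changes of 0.19 and 0.28 and Pcdh9 of 0.25 and 0.24. Ptk2, the focal adhesion kinase that binds protocadherin tails, had 0.27 and 0.32. With the brightest accession standing for each gene, those had the lowest p of the related genes, and limma called none of them (adjusted p = 0.278 for each). A dimmer accession of Pcdh7 had a lower p and ran the other way, with log2 fold changes of −0.37 and −0.34 (limma adjusted p = 0.278).

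The regulators, among them CTCF, cohesin subunits, Dnmt3b and Smchd1, had medians of 0.01 in both sexes, with 8 of 15 genes above 0 in each. The 18 cytoplasmic partners had medians of 0.03 and 0.04, the 7 classical cadherins 0.03 and 0.08, and the 5 proteases −0.00053 and −0.03. None of these lists held a gene at an adjusted p under 0.05 by limma, and 11 of the 56 genes had an unadjusted p under 0.05, beside 16.7% of all accessions.

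Cell type markers moved with some of these values. The neuron markers, brightest accession of each of 5 genes, had medians of 0.16 in the male and 0.14 in the female comparison, with single genes from −0.05 to 0.21 and from −0.06 to 0.18. Dcx, Map2 and Snap25 were above 0 in both comparisons, Tubb3 was below 0 in both, and Stmn2 was below 0 in the male one alone. Their summed signal before scaling was 263903 and 261303 on the Sham male and female and 281336 and 293482 on the TiO2-H male and female arrays. The array's 75th percentile, which scaling takes out, also rose, from 810 and 795 on the Sham to 867 and 871 on the TiO2-H male and female arrays. Glial markers had medians of 0.0043 and 0.08, and the 2 blood markers on the array −0.29 and −0.13. The 4 markers of meninges and fibroblasts had medians of 0.07 and 0.15, and the 2 endothelial markers 0.21 and 0.08. The 3 choroid plexus markers had −0.09 and 0.04. Higher on both TiO2-H arrays than on either Sham array were 4 of 6 neuron, 2 of 3 glial, 4 of 4 meningeal and 1 of 2 endothelial accessions. Of all accessions 30.9% were. Lower on both were 1 of 6 neuron, 2 of 2 blood and 1 of 4 choroid plexus accessions, beside 25.7% of all accessions. Between the Sham arrays (female over male) the 6 accessions of the neuron markers ran from −0.07 to 0.09, with a median of 0.02 and 4 of 6 above 0. The part of these cell types in the alpha and beta values, between exposures or between the Sham arrays, was not tested.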

How the data were processed

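The authors hybridized 1 Cy3-labelled RNA pool per group to arrays of 62976 spots and deposited scanner output and a value table, both as intensity, made with Agilent Feature Extraction (version 10.10.1.1 per the labels). The deposited table matched the processed signal within 0.01 percent for all 59305 spots that are not controls. Here, outlier spots were left out, spots of a probe averaged on the log2 scale, with no pseudocount, and each array's 75th percentile subtracted. The probe with the highest mean stood for an accession, named through RefSeq (GRCm38.p6), which held 81.9% of 26194 accessions. A comparison needed the probe to be well above background on either array. On a dim side its own signal, or that array's dimmest signal well above background if higher, was used, and the fold is a bound. A bound that rests on the probe's own signal, as for Pcdhb5 on the TiO2-H male array, is not strict. Cluster medians used members well above background on all 4 arrays. limma 3.58.1 in R 4.3.3 tested exposure over all accessions. Python 3.11.15, numpy 2.4.6, pandas 2.3.3 and matplotlib 3.10.9 did the rest, and the steps were tested on simulated data. No dates or batches were used, and 0 columns of other samples were present.

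Members, lists and tests were chosen with earlier results of these data known. Named were members past the fold limits, C-type genes, the 3 lowest limma p and the 2 widest ranges in each cluster, related genes past the limits and the 3 related genes with the lowest p. Outside this rule, values were also given for Pcdhb9, Pcdhb14, Pcdhgb1 and the dimmer accession of Pcdh7. Alternatives changed the scaling, background correction, filter, probe rule, floor, outlier flags, threshold, sex term, pairing and arrays used. CpG island arrays of the study were not used here.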

Additional observations from a re-analysis of the deposited data

How the results depend on the processing

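The count of members past 1.5-fold or 0.67-fold on the arrays labelled male went from 2 to 0 where both arrays had to be well above background and to 1 with the TiO2-H arrays crossed. On the arrays labelled female it went from 0 to 1 when crossed. Without scaling, the alpha median of the log2 fold change over both sexes went from 0.11 to 0.23, the beta median from 0.12 to 0.23 and the gamma value from −0.01 to 0.10. With normexp background correction alpha was 0.054 and beta 0.065, and with no filter on dim probes beta was 0.069. Leaving out 1 array gave 0.059 (without TiO2-H female) to 0.14 for alpha, 0.020 (without Sham male) to 0.22 (without Sham female) for beta, with 0.068 without TiO2-H female, and −0.02 (without TiO2-H female) to −0.0063 (without TiO2-H male) for gamma. The gamma value rests on Pcdhga9 and was 0.027 with quantile normalization, 0.087 with the mean of its probes, −0.0023 over 6 genes with no filter on dim probes and 0.0096 over 5 genes well above background on at least 1 array, the last a setting chosen after seeing the data. limma called 0 members under all 15 alternatives, with a lowest adjusted p between 0.108 and 0.441 and 2 to 9 members at an unadjusted p under 0.05. The cause of these changes was not tested. The labels carry no replicate numbers. With the pools paired by labelled sex as a term, the lowest limma adjusted p of a member was 0.416, and with sex crossed within TiO2-H it was 0.439.

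Signal over background limited 12 members: 6 were not well above background on any array and 6 on 1 to 3 arrays. Among probes spotted 10 times, the median SD on the log2 scale was 0.062 to 0.067 for those well above background and 0.18 to 0.35 for the others.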
